A study of Rattus norvegicus with 12 samples.

Results

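Expression of 9 complement genes was examined in the hippocampus of blast-exposed rats with and without boldine, an alkaloid given in chow. The genes were chosen by symbol: C1qa, C1qb and C1qc, the chains of the initiating protein C1q, the components C3, C4a and C4b, the C1 inhibitor gene Serping1, and the receptor genes C3ar1 and C5ar1. All 9 were among the 17494 genes of the count table, and all 9 passed the filter on low counts, which left 12325 genes. The animals were male Long Evans hooded rats of wild-type genotype, all of which received 3 blast exposures, 1 a day, at 10 weeks of age and were sacrificed 29 weeks after blast. Of these, 6 rats (blast-boldine) ate chow with boldine at 500 mg/kg from the second week after blast until sacrifice, and 6 (blast-controls) ate standard chow. RNA came from whole tissue, 1 library per rat, and no library from rats without blast was analysed, so the values compare boldine with no boldine after blast and not blast with sham. Brain is the tissue in the labels and hippocampus in the study's methods, and Prox1, a marker of hippocampal granule neurons, lay between 89.7 and 215 CPM (counts scaled to the library total) in all libraries but that of rat 6.

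Complement is a cascade of plasma and tissue proteins that marks targets for removal. C1q binds a target and starts the classical pathway, which cleaves C4 and then C3, and the released fragments C3a and C5a act through the receptors encoded by C3ar1 and C5ar1. In the brain, C1q is made largely by microglia, and C1q and C3 are known for tagging synapses that microglia then remove. In whole tissue, fewer cells of a type and less RNA per cell cannot be told apart.

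Depth set what could be seen. Total counts were between 10148474 and 40850106 in 11 rats, but 74008 in blast-control rat 6, where 3 counts, taken as the least that is detected, were worth 47.5 CPM. In the other rats 3 counts were worth 0.0658 to 0.307 CPM, and these limits cover counting error only. Rat 6 had 0 counts for 7 of the 9 genes, 3 counts for C3 and 7 for C4a, so each comparison was repeated without it. The library names also carry suffixes S1 to S6, each on 2 libraries, and the 11 other libraries fell into 2 sets of suffixes that accounted for 94.8% of the first principal component, against 1.58% for treatment. Set 1 holds blast-boldine rats 12, 17 and 19 and blast-control rats 4, 5 and 6, and set 2 holds blast-boldine rats 20, 32 and 35 and blast-control rats 1, 7 and 9. The assignment was chosen from 4 possible ones on these data and the labels do not say what the sets are, so set differences are given as a description without a test.

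None of the 9 complement genes differed between blast-boldine and blast-control rats beyond the spread between rats. With all 12 rats, 7 of the 9 log2 fold changes (blast-boldine over blast-control) were below 0 and 2 were above, in a table in which 48.7% of genes were below 0. They ranged from -0.29 for C1qb to 0.15 for C4b, with a median of -0.10 against 0.0046 over all genes tested. Count and median both hang on single libraries: without rat 19, 4 were below 0 and 5 above with a median of 0.024, without rat 12 the median was -0.00095, and without rat 20 it was -0.27. In limma-voom, an alternative to edgeR, it was -0.26 with 7 of 9 below 0. None passed a nominal p of 0.05, where 1.07% of all genes did, and none passed after Benjamini-Hochberg adjustment in edgeR's quasi-likelihood test, where 0% of genes did (adjusted p = 1.0 for each member). The smallest nominal p among them was 0.253, for C3. Without rat 6 the count was again 7 below and 2 above 0, against 50.3% of genes below 0, with a median of -0.14, and no member passed a nominal p of 0.05, where 1.4% of genes did. With the suffix set as a covariate, 3.85% of genes passed a nominal p of 0.05 with 12 rats and 5.35% without rat 6, and again none of the 9 did. Of 11 microglial markers 10 were also below 0 with 12 rats, with a median of -0.05 and none at a nominal p under 0.05. This was not particular to microglia. Astrocytes had 7 of 9 below 0 (median -0.06), oligodendrocytes 4 of 6 (-0.04) and hippocampal neurons 4 of 6 (-0.01). Blood had 2 of 3, neurons 3 of 6, meninges and choroid plexus 1 of 6 each, and endothelium and border macrophages none. These marker counts are of the 12-rat fit only.

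**Figure D1:**
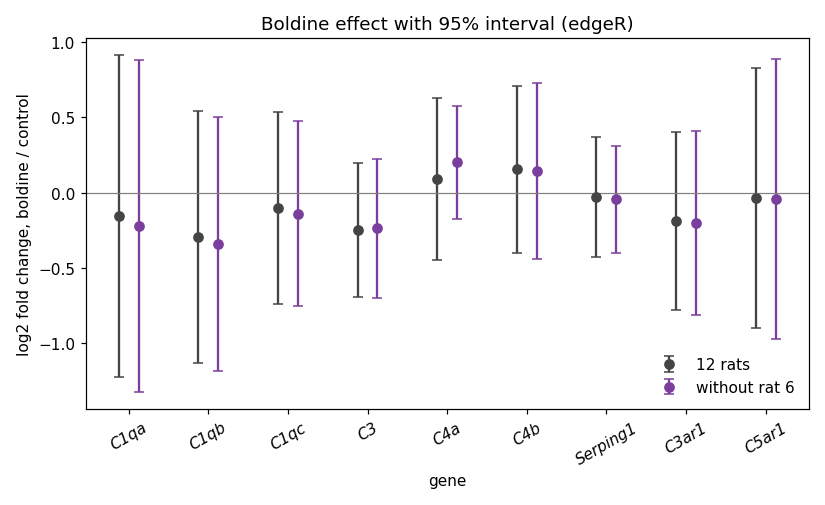
Fitted log2 fold change of blast-boldine over blast-control for each gene (points, edgeR) with its 95% interval (bars), for 12 rats and without rat 6. Every interval spans 0, and those of C1qa are the widest, from -1.22 to 0.92 with 12 rats.

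Per length, the 3 C1q genes had the highest levels of the 9. Over 11 rats, C1qa had a mean of 41.4 FPKM (here CPM divided by exon length in kilobases; SD 22.5, n = 11), above the mean of 85.4% of genes in the table. It was followed by C1qb at 22.4 ± 9.78, C1qc at 18.0 ± 5.89, C3 at 6.97 ± 1.65, C4a at 6.24 ± 1.20, Serping1 at 4.13 ± 0.65, C3ar1 at 0.99 ± 0.30, C5ar1 at 0.49 ± 0.24 and C4b at 0.22 ± 0.057 FPKM (SD, n = 11 for each). In this order C1qa was above C1qb, C1qc above C3, C4a above Serping1, Serping1 above C3ar1 and C3ar1 above C5ar1 in 11 of 11 rats. C3 and C4a were not separated, with C3 the higher in 7 of 11 rats, while C1qb was above C1qc and C5ar1 above C4b in 9 of 11.

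**Figure D2:**
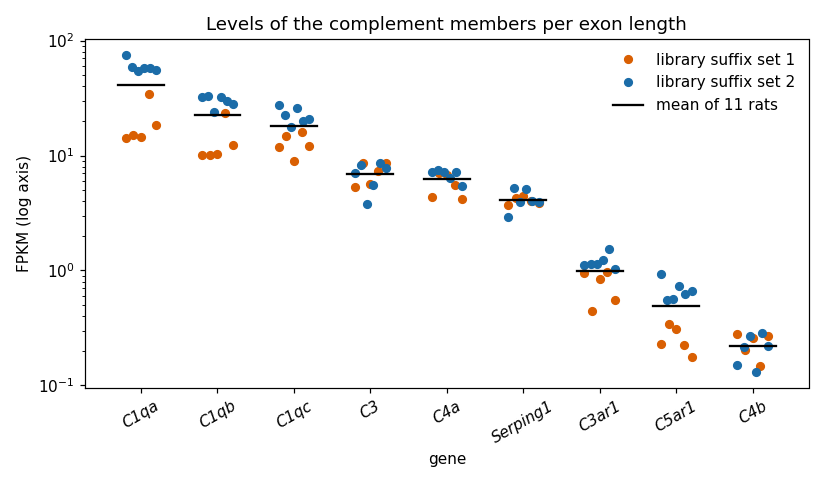
FPKM (log axis) of each gene in 11 rats without rat 6, with points coloured by library suffix set and a bar at the mean. The C1q genes lead, from a mean of 41.4 FPKM for C1qa, C3 and C4a lie together, and C4b is lowest at 0.22.

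The C1q chains are encoded next to each other on the minus strand of chromosome 5 in mRatBN7.2, C1qb at chr5:149118843-149124392, C1qc at chr5:149127424-149130732 and C1qa at chr5:149133635-149136482, with 3031 bases between C1qb and C1qc and 2902 between C1qc and C1qa. RefSeq promoter sequences were found for 6 of the 9 members (C1qa, C1qb, C3, C3ar1, C4a and C4b), on the build GRCr8. The 250 bases before the start of C1qa (chr5:154419934-154420183, minus strand) and of C1qb (chr5:154407828-154408077, minus strand) are shown. These 2 genes had the highest correlation among the members within sets (r = 0.94), a value that leans on rat 4. Capitals mark GGAAGT or its reverse complement ACTTCC, a core bound by ETS family factors such as PU.1 of myeloid cells.
C1qa: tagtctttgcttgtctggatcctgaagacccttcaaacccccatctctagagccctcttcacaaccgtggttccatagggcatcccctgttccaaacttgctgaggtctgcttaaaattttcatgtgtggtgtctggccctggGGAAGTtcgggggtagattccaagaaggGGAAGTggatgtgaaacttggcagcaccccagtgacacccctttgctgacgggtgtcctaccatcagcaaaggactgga
C1qb: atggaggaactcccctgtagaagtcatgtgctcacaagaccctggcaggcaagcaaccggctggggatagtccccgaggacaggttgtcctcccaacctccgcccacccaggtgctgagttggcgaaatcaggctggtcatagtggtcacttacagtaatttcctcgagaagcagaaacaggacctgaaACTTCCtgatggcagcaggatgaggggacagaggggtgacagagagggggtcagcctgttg
The motif begins 107 and 79 bases before the start of C1qa on the plus orientation of the gene, and on the opposite strand its 6 letters begin 61 bases before the start of C1qb. In all, 19.2% of the 33469 RefSeq promoters hold it in the same window, and of the 6 members matched only these 2 do. A match in letters is a description and not a measured site.

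In blast-control rats 1, 4, 5, 6, 7 and 9, C1qa was at 57.5, 34.3, 18.5, 0, 57.7 and 55.9 CPM. In blast-boldine rats 12, 17, 19, 20, 32 and 35 it was at 14.2, 15.0, 14.4, 75.6, 58.6 and 54.2 CPM. The highest and, leaving out rat 6, the lowest values were both in blast-boldine rats, and the groups overlapped. The log2 fold change was -0.15 (SE 0.50, 95% interval -1.22 to 0.92 in edgeR) and -0.22 (SE 0.50) without rat 6.

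C1qb was at 34.8, 25.4, 13.4, 0, 32.3 and 29.9 CPM in blast-control rats 1, 4, 5, 6, 7 and 9. It was at 10.8, 10.8, 11.2, 34.9, 35.8 and 25.6 CPM in blast-boldine rats 12, 17, 19, 20, 32 and 35. As for C1qa, blast-boldine rats fell into a low and a high group of 3, and the blast-controls lay among and between them. Its log2 fold change was -0.29 (SE 0.39, 95% interval -1.13 to 0.54 in edgeR) and -0.34 without rat 6 (SE 0.39). In mean log2 CPM without rat 6 the difference was -0.47 (exact permutation p = 0.329).

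C1qc was at 26.6, 16.4, 12.4, 0, 20.5 and 21.3 CPM in the same blast-controls and at 12.3, 15.3, 9.31, 28.1, 23.2 and 18.2 CPM in the same blast-boldine rats. The groups overlapped over most of their range. Its log2 fold change was -0.10 (SE 0.30, 95% interval -0.74 to 0.53 in edgeR) and -0.14 without rat 6, where the difference in mean log2 CPM had an exact permutation p = 0.569. The zeros of rat 6 lie under the limit of 47.5 CPM in that library, which is above every C1qb and C1qc value in the other rats and every C1qa value of set 1, so they say little of these genes. In unweighted means of log2 CPM they nevertheless turned the direction: for C1qa the blast-boldine mean was 0.96 above that of blast-controls with rat 6 (exact permutation p = 0.749) and 0.45 below without it (exact permutation p = 0.452).

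**Figure D3:**
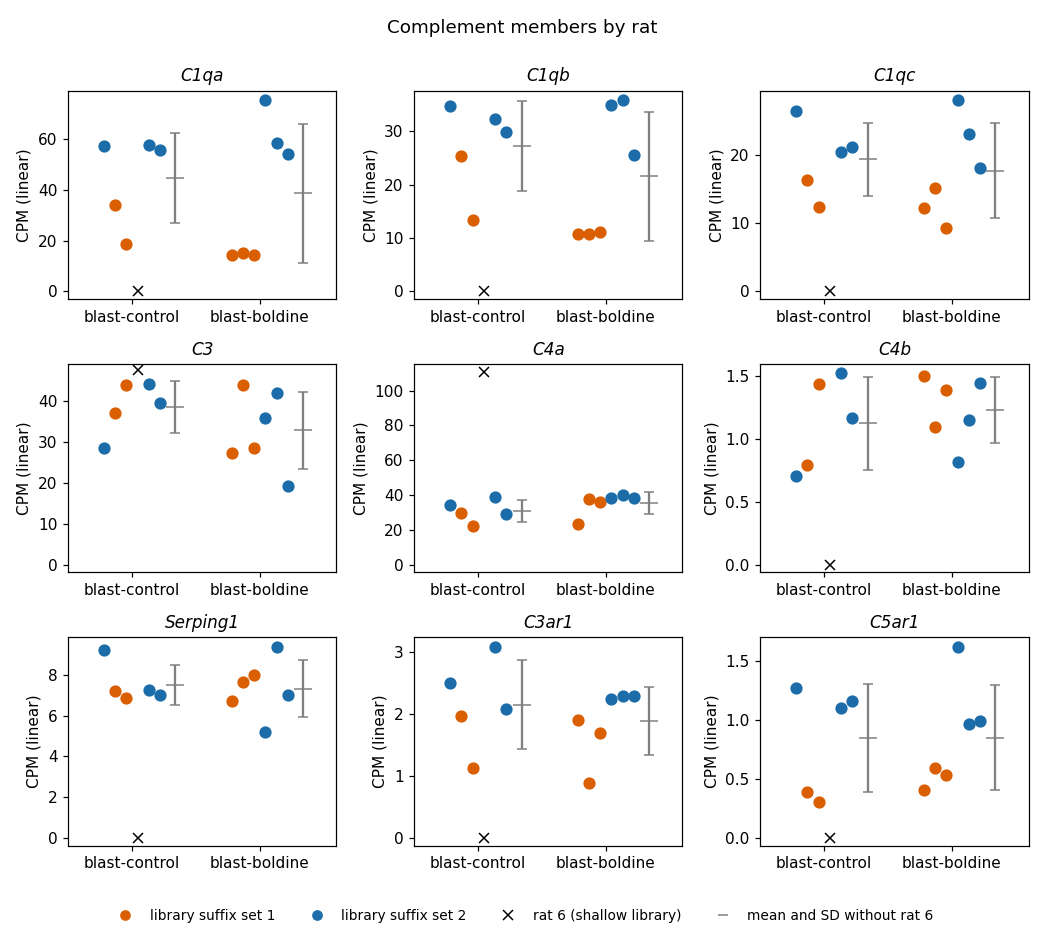
CPM of each gene by group, 1 point per rat, coloured by library suffix set, with rat 6 as a cross and the mean and SD of the other rats in grey. For C1qa, C1qb, C1qc, C3ar1 and C5ar1 every set 2 rat lies above every set 1 rat in both groups, whereas for C3, C4a, C4b and Serping1 the colours mix.

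The C1q genes and both receptors separated by suffix set. Leaving out rat 6, mean log2 CPM was higher in set 2 than in set 1 by 1.71 for C1qa, 1.24 for C1qb, 1.21 for C5ar1, 0.81 for C1qc and 0.68 for C3ar1, and for these 5 genes every set 2 library was above every set 1 library, as for 24.2% of all genes tested. C1qa was at 54.2 to 75.6 CPM in set 2 and 14.2 to 34.3 CPM in set 1, and 0.755% of tested genes had a larger difference. The margin was narrow for others: the lowest set 2 value of C1qb was 25.6 CPM and the highest set 1 value 25.4 CPM. For C3ar1 these were 2.08 and 1.97 CPM, and for C1qc 18.2 and 16.4 CPM. C5ar1 rested on 3 to 7 counts per rat in set 1 without rat 6 and on 14 to 58 in set 2. C4a (0.32), Serping1 (0.02), C3 (-0.07) and C4b (-0.13) overlapped between the sets.

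Other quantities moved with the same sets, and their part in the result was not tested. Total counts were 10148474 to 17952696 in set 1 without rat 6 and 11835956 to 40850106 in set 2. Over all genes tested, the median difference between the sets was 0.02. Of 11 microglial markers tested, 10 were higher in set 2, with a median difference of 0.99, among them Cx3cr1 (0.99), P2ry12 (1.35) and Tmem119 (1.46), while Sall1 was lower (-0.37). Their summed level was 380 to 526 CPM in set 1 and 709 to 806 CPM in set 2. The summed level of endothelial markers was 226 to 306 CPM in set 1 and 96.0 to 146 CPM in set 2, with all 6 lower. Some other lists were mostly higher in set 2, oligodendrocytes with 5 of 6 markers (median difference 0.53) and astrocytes with 8 of 9 (0.35). The same held for meninges with 5 of 6 (0.50) and choroid plexus with 6 of 6 (1.24), whose summed level reached 1218 CPM in both sets. The rest were not: neurons (-0.06) and hippocampal neurons (0.02) each had 3 of 6 higher, border macrophages 1 of 4 (-0.23) and blood 1 of 3 (-0.35). Exon length moved as well: the median difference over all genes was 0.31 for exon lengths under 1000 bases, 0.18 from 1000 to 1500, 0.10 from 1500 to 2500, -0.02 from 2500 to 4000, and -0.24 above 4000 bases. C1qa, C1qb and C1qc have 1002, 1076 and 1029 bases of exon, C5ar1 has 1753 and C3ar1 has 2025, whereas C3, C4a and C4b have 5073, 5358 and 5353. Among genes of 1000 to 1500 bases 32.7% were above 0.5, the side on which all 3 C1q genes lie, so their set differences were above the median of genes of their length. This was not particular to C1q. C5ar1 (1.21) and C3ar1 (0.68) were above their class median of 0.10, and C4a (0.32), C3 (-0.07) and C4b (-0.13) above theirs of -0.24. Only Serping1 (0.02) was below that of its class (0.10).

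**Figure D4:**
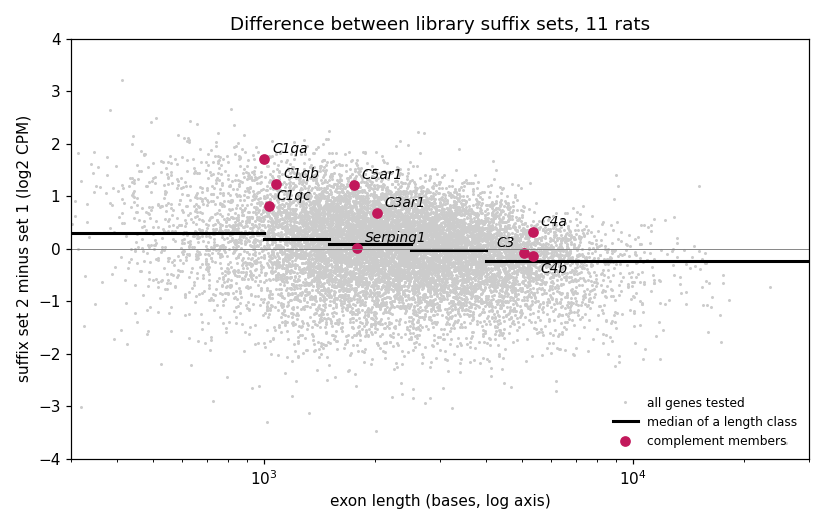
Difference in mean log2 CPM between library suffix sets (set 2 minus set 1, 11 rats) against exon length (log axis) for all genes tested (grey, 63 genes outside the axes) and the 9 members (red), with the median of each length class in black. The C1q genes lie between 0.81 and 1.71 where the class median is 0.18, and C3 and C4b lie near 0 among long genes, where it is -0.24.

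The chains did not move by the same amount. C1qa made up 37.5% to 46.4% of the summed C1q FPKM in set 1 (mean 41.7% ± 3.46, SD, n = 5) and 49.7% to 56.6% in set 2 (53.4% ± 2.64, SD, n = 6). C1qc was at 29.3% ± 6.00 in set 1 and 19.9% ± 1.41 in set 2, and C1qb was at 28.9% ± 2.63 and 26.8% ± 1.98. After the mean of each set was subtracted, C1qa and C1qb still correlated at r = 0.94 over 11 libraries, and C1qc with them at 0.62 and 0.61. These are given as a description since the points share library depth and treatment group. The value of 0.94 leans on rat 4, whose log2 CPM was 5.10 for C1qa and 4.67 for C1qb against set 1 means of 4.19 and 3.77. No correlation was computed without that rat. The genes most like C1qa by this measure were Urm1 (r = 0.97), Gnptg (0.96) and Vps18 (0.96), and those most like C1qb were Ubqln4 (0.97), Csk (0.95) and Impdh1 (0.95). They were picked as the 3 highest r for each gene among 12325 genes tested, over 11 libraries with rat 4 included. Joint regulation was not tested.

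Within set 1, mean log2 CPM of 3 blast-boldine rats minus that of blast-control rats 4 and 5 was -0.79 for C1qa, -0.75 for C1qb and -0.24 for C1qc. The first 2 values lean on rat 4, at 34.3 CPM for C1qa and 25.4 CPM for C1qb, against 18.5 and 13.4 CPM in rat 5. The set 1 blast-boldine rats were at 14.2 to 15.0 and 10.8 to 11.2 CPM. No within-set value was computed without rat 4. In set 2, with 3 rats in each group, the differences were 0.12 for C1qa, -0.02 for C1qb and 0.01 for C1qc. Whether the sets differ in this was not tested. Permuting treatment within sets without rat 6 gave an exact two-sided p = 0.18 for C1qa and p = 0.065 for C1qb, where the smallest possible is 0.005. With the set as a covariate and without rat 6, C1qb was at -0.35 on the log2 scale (SE 0.18) and C1qa at -0.28 (SE 0.19), each with an adjusted p = 0.898 in edgeR.

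C3, on which the pathways converge, is at chr9:2087437-2114366 on the minus strand. It was at 28.4, 36.9, 43.7, 47.5, 44.1 and 39.4 CPM in blast-control rats 1, 4, 5, 6, 7 and 9, the fourth value resting on 3 counts. It was at 27.2, 43.7, 28.5, 35.8, 41.9 and 19.2 CPM in blast-boldine rats 12, 17, 19, 20, 32 and 35. The 2 lowest values were in blast-boldine rats 35 and 12, and the groups overlapped. Its log2 fold change was -0.25 (SE 0.21, 95% interval -0.69 to 0.20 in edgeR) and -0.24 without rat 6 (exact permutation p = 0.268 in mean log2 CPM), and it was below 0 in both sets, at -0.31 in set 1 and -0.26 in set 2 by mean log2 CPM.

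C4a and C4b are copies of the C4 gene on the plus strand of chromosome 20, at chr20:4005731-4020082 and chr20:4197371-4211683, 177288 bases apart. Their promoters are shown because these differ little in letters, while the counts of the 2 genes differ much. Capitals mark bases that differ, or have no partner, when the 250 bases before the start of C4a (chr20:4010107-4010356, plus strand, GRCr8) and of C4b (chr20:4201729-4201978) are aligned.
C4a: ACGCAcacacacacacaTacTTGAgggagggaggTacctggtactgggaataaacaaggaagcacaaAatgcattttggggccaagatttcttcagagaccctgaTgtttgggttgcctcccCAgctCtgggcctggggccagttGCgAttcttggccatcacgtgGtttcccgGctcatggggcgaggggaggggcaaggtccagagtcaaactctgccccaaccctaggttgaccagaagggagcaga
C4b: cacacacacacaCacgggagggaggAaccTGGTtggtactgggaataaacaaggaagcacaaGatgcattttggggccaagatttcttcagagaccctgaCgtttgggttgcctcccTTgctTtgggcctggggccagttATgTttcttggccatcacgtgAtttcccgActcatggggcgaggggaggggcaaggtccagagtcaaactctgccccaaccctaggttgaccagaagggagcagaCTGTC
Of 241 aligned pairs of bases 229 were identical (95.02%). C4b took 2.02% to 6.10% of the counts on the 2 genes in 11 rats. The likeness of their exons was not measured. Reads that align to both copies equally well are not counted by the stated command, so the split between the copies is uncertain and each level is of reads that tell them apart.

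C4a was at 34.04, 29.8, 22.2, 110.9, 38.8 and 29.1 CPM in blast-control rats 1, 4, 5, 6, 7 and 9, with 7 counts behind the value of rat 6. It was at 23.1, 37.8, 35.9, 38.5, 40.0 and 38.4 CPM in blast-boldine rats 12, 17, 19, 20, 32 and 35. Apart from rat 12, the blast-boldine rats lay between 35.9 and 40.0 CPM, and the blast-controls other than rat 6 between 22.2 and 38.8 CPM. For C4a the log2 fold change was 0.09 (SE 0.25, 95% interval -0.45 to 0.63 in edgeR) and 0.20 without rat 6 (SE 0.17, 95% interval -0.17 to 0.58; exact permutation p = 0.284 in mean log2 CPM). With the set as a covariate and without rat 6 it was 0.24 (SE 0.13, adjusted p = 0.898 in edgeR). C4b was at 0.70 to 1.52 CPM in 11 rats and at 0 in rat 6, with a log2 fold change of 0.15 (SE 0.26) over 8 to 32 counts per rat.

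Serping1, which encodes the inhibitor of C1r and C1s, is at chr3:69842739-69852034 on the minus strand. It had the narrowest interval of the 9 genes with 12 rats, at 9.22, 7.21, 6.86, 0, 7.23 and 7.004 CPM in blast-controls and 6.70, 7.64, 8.003, 5.19, 9.37 and 7.02 CPM in blast-boldine rats. The groups covered much the same range. The log2 fold change was -0.03 (SE 0.18, 95% interval -0.42 to 0.37 in edgeR), and without rat 6 the exact permutation p of the mean log2 CPM was 0.786.

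The receptors had lower levels than all other members but C4b. C3ar1 (chr4:156077753-156084600, minus strand) was at 2.50, 1.97, 1.13, 0, 3.09 and 2.08 CPM in blast-controls and 1.91, 0.89, 1.69, 2.255, 2.30 and 2.29 CPM in blast-boldine rats, on 9 to 114 counts outside rat 6. Its fitted log2 fold change was -0.19 (SE 0.27, 95% interval -0.78 to 0.40 in edgeR). C5ar1 (chr1:76949148-76959517, minus strand) was at 1.27, 0.39, 0.31, 0, 1.10 and 1.17 CPM and at 0.40, 0.60, 0.54, 1.62, 0.96 and 0.995 CPM, on 3 to 58 counts outside rat 6. Its log2 fold change was -0.04 (SE 0.40, 95% interval -0.90 to 0.83 in edgeR) and became 0.12 with the set as a covariate.

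None of the other complement genes passed the test either. Of 51 genes listed, 45 were in the table and 29 were tested, of which 10 were below 0 and 19 above, with a median of 0.04, and none passed a nominal p of 0.05 with 12 rats or without rat 6. Of the classical and lectin genes 1 of 6 was below 0, and the most abundant were C1r at 8.32 FPKM (log2 fold change 0.23), Masp1 at 7.02 FPKM (0.04) and Colec12 at 6.29 FPKM (0.29), in edgeR. The alternative pathway genes were 3 of 3 above 0, with Cfb, the protease component of its C3 convertase, at 0.56 (SE 0.28), Cfd at 0.51 (SE 0.49) and Cfp at 0.19 (SE 0.28) in edgeR. Of the terminal pathway 6 of 7 listed genes were in the table, and of these only C8g passed the filter on low counts (0.02). Regulators were 6 below and 7 above 0, led in level by Clu at 363 FPKM (-0.11), Sez6l2 at 104 FPKM (-0.08) and Sez6l at 97.2 FPKM (-0.06). Other receptors were 3 below and 3 above 0, led by Calr at 322 FPKM, whose log2 fold change was -0.35 with rat 6 and 0.15 without it, by Lrp1 at 110 FPKM (-0.05 and -0.14) and by Itgb2 at 4.28 FPKM (0.14 and 0.11). With the set as a covariate and without rat 6, 3 of the 29 passed a nominal p of 0.05, against 5.35% of all genes (227 higher and 443 lower), all 3 higher in blast-boldine rats (Cfb, Colec12 and C1s, of which C1s is named after its value was seen), and none after adjustment. With 12 rats, the log2 fold changes of several marker lists lay mostly above 0 too: border macrophages with 4 of 4 tested (median 0.28), meninges with 5 of 6 (0.57), endothelium with 6 of 6 (0.23) and choroid plexus with 5 of 6 (0.27). Other lists were not: 1 of 11 microglial, 2 of 9 astrocyte, 2 of 6 oligodendrocyte and 2 of 6 hippocampal neuron markers were above 0. Neurons had 3 of 6 above 0 and blood 1 of 3. Over all genes tested, 48.7% were below 0. Of the markers, 1 for border macrophages and 1 for meninges had a nominal p under 0.05 in edgeR, where 1.07% of all genes did. The part of these cell types in the values was not tested.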

How the data were processed

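Hippocampal total RNA (TRIzol; TruSeq Stranded Total RNA with ribosomal RNA depletion) of 12 rats was sequenced, 1 library per rat. The authors used HTStream for duplicate removal and trimming, STAR 2.7.11b for alignment to mRatBN7.2, and counted reads on RefSeq exons by gene name and strand with featureCounts (Subread 2.0.1). The deposited values are these counts per gene, whole numbers without normalization. Duplicates had been removed before counting. From the counts, genes were tested with edgeR 4.0.16 in R 4.3.3 (TMM, filterByExpr with a minimum of 10 counts, quasi-likelihood test with treatment only, two-sided, Benjamini-Hochberg over all genes tested). The fit was checked on simulated data with no difference between suffix sets and with changes larger than those of the members. That check cannot show how the test behaves with such sets or with changes of the members' size. The study's own test, DESeq2 (version 1.42.0 here), and limma-voom (limma 3.58.1) were alternatives, as were other size factors, filters, suffix set as a covariate, and leaving out each rat. CPM are scaled to the library total after TMM, FPKM divide them by exon length, and log2 CPM uses a prior count of 2. Single genes were also compared by exact two-sided permutation over rats. Its p is the share of assignments of these libraries to the groups with an absolute difference in means at least that observed. Promoters came from RefSeq (GRCr8), a build other than that of the counts. Members and gene lists were chosen with earlier results of these data known. Named beside the 9 members were, in each list of other complement genes, the tested genes with the highest mean FPKM, at most 3. Those with a nominal p under 0.05 with 12 rats or without rat 6 were to be named too, and none had one. C1s was named outside this rule, after its value with the suffix set as a covariate was seen. Plots and permutations used Python 3.11.15.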

Additional observations from a re-analysis of the deposited data

Results flagged for a closer look

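A single rat stood apart from the others of its group for 2 of the 9 genes, measured as the gap of the lowest or highest rat to its neighbour over the range of the group, with Dixon's 95% critical value for 6 rats. For C4a in blast-boldine rats the ratio was 0.761, for rat 12 at 23.1 CPM. For C4a in blast-controls it was 0.813, for rat 6 at 110.9 CPM on 7 counts, and for Serping1 in blast-controls it was 0.744, for rat 6 at 0 counts. Of 18 groups tested, chance alone flags about 1 in 20. The last 2 of these values come from the library with 74008 counts.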

How the results depend on the processing

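No member passed a nominal or adjusted p of 0.05 in edgeR under any alternative run, nor in DESeq2 or limma-voom, and adjusted p ranged from 0.898 to 1.0. The median over the members moved from -0.10 to 0.024 without rat 19, -0.27 without rat 20 and -0.26 in limma-voom. C1qb, C3 and C3ar1 stayed below 0 under every alternative fit. The C5ar1 log2 fold change turned to 0.12 with the suffix set as a covariate and 0.11 with the set and without rat 6. In mean log2 CPM, leaving out rat 6 turned C1qa to -0.45, C1qb to -0.47, C1qc to -0.18, C4a to 0.21, Serping1 to -0.049 and C3ar1 to -0.17. Its values enter unweighted there, 0 counts for each of these genes but C4a, which was at 110.9 CPM on 7 counts. Leaving out 1 rat at a time, log2 fold changes ranged from -0.45 to 0.024 for C1qa (above 0 without rat 12, 17 or 19), -0.28 to 0.048 for C1qc (above 0 without rat 19 or 1), -0.0087 to 0.20 for C4a (below 0 without rat 5), -0.012 to 0.31 for C4b (below 0 without rat 1), -0.11 to 0.068 for Serping1 (above 0 without rat 20 or 1) and -0.33 to 0.18 for C5ar1 (above 0 without rat 12, 17, 19, 1, 7 or 9). No paired analysis was possible because the labels give the groups no replicate numbers in common. Outside rat 6, C4b rested on 8 to 32 counts per rat and C5ar1 on 3 to 58, and in rat 6 a gene under 47.5 CPM is below the limit of 3 counts.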
